A study of Mus musculus with 6 samples.

Results

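The potassium channel genes of the mouse were followed across 6 brain sections profiled with Visium, an array of barcoded spots on which each spot captures the RNA of a small region of tissue that can hold several cells of different types. The genes were chosen by symbol: every mouse gene whose symbol starts with Kcn, followed by letters and a digit, and that had at least 100 unique molecules (UMIs) over all sections. Of 32288 genes in the count tables, 98 symbols matched, 20 of these fell under the minimum, 1 further matching gene was left out, and 77 were described. The totals ran from 138 UMIs for Kcnmb1, the accessory subunit of the smooth muscle BK channel, to 47646 for Kcnab2, an accessory beta subunit of the Kv1 channels. Among the genes under the minimum, Kcnn4 had 39 UMIs and Kcna3 had 1, and Kcnmb3, Kcna7 and Kcnk18 had none.

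Each of the 6 groups was 1 coronal section of 1 right hemibrain, all from female mice homozygous for human APOE3 (E3) or APOE4 (E4), which replaces the coding region of mouse Apoe under the mouse promoter. For each genotype there was a young mouse (3 months), an aged mouse (24 months) and a mouse that also carried 5xFAD, a transgene set with mutant human APP driven by Thy1 promoter cassettes (12 months). The 5xFAD mice therefore differed from the young mice in age, in the background of the 5xFAD cross and in the transgenes, which cannot be told apart. The labels call the material non-neuronal brain cells, but these were whole tissue sections, and markers of neurons led most areas described below. Human APP stood at 95.9 and 124 CPM in the cortex of the E3 and E4 5xFAD sections and at 0 to 0.387 CPM in the other 4, as the labels state. A CPM is here a gene's count scaled to 1000000 UMIs of the same area in the same section. Where 6 values stand in a row below, they run from the young to the aged to the 5xFAD pair, with E3 before E4 in each pair.

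Potassium channels let potassium ions leave the cell or, for the inward rectifiers, pass inward near the resting potential, and so set the resting potential and end the action potential. The voltage-gated families differ in speed: Kv1 and Kv2 channels give delayed rectifier currents in axons and in cell bodies, Kv3 channels close fast enough for high firing rates, Kv4 channels with their KChIP subunits give the transient A current, and KCNQ channels give the slow M current. Other families answer to calcium (SK and BK channels), to G proteins or ATP (inward rectifiers), or stay open at rest (two-pore-domain channels). In glia, the best known member is Kcnj10, the inward rectifier through which astrocytes take up potassium. The 77 genes comprised 13 inward rectifiers, 9 two-pore-domain channels, 7 BK and sodium-activated channel genes, 7 EAG channels, 7 silent Kv subunits, 5 Kv1, 4 KCNQ, 4 KChIP, 4 Kv3, 3 Kv beta, 3 Kv4, 3 SK, 3 KCNE and 2 Kv2 genes, and 3 noncoding transcripts (Kcnd3os, Kcnmb4os2 and Kcnq1ot1).

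The sequences before a listed start of 6 members that carry the results below are shown first, to let a reader set where each was high beside that DNA. Each run is the 250 bases before the listed start from RefSeq (GRCm38.p6), written 5′ to 3′ on the strand of the gene. For Kcnk13 and Kcnip2 that start lies inside the annotated gene (chr12:99963149-100062682 and chr19:45792346-45816422). Their runs are therefore inside the gene and not before its outer end. Capitals mark the letters of a GC box (GGGCGG or CCGCCC) or of an E box (CAGCTG, the same on both strands), and the motifs did not overlap. Kcnh5, the member with the highest fold in the upper cortical layers, has its run at chr12:75177333-75177582 on the minus strand. Kcna5, the highest fold in the striatum, lies at chr6:126535556-126535805 on the minus strand and holds no motif. Kcne4, the highest fold in the thalamus, lies at chr1:78816661-78816910 on the plus strand. Kcnk13, the highest fold in the white matter, lies at chr12:99964249-99964498 on the plus strand and holds no motif. Kcnj2 and Kcnip2, the members that passed the test between 5xFAD and young sections, lie at chr11:111065914-111066163 on the plus strand and at chr19:45816064-45816313 on the minus strand.
Kcnh5: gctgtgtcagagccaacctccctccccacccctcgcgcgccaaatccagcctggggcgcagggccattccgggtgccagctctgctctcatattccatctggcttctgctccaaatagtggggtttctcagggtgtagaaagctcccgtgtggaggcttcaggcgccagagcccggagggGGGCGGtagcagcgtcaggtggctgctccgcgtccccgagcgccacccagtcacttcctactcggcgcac
Kcna5: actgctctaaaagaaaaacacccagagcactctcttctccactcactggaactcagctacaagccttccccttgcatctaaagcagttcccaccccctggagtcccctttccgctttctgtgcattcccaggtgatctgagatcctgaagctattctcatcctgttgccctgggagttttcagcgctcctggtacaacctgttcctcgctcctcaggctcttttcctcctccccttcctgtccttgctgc
Kcne4: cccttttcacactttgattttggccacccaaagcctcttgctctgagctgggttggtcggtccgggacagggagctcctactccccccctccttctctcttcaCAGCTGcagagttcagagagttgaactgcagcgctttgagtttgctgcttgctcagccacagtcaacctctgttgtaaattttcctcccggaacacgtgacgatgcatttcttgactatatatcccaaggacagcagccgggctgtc
Kcnk13: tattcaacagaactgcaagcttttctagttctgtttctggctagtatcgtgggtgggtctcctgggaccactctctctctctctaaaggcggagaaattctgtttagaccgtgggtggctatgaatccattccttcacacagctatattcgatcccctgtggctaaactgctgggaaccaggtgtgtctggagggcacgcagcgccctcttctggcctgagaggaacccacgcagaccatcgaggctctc
Kcnj2: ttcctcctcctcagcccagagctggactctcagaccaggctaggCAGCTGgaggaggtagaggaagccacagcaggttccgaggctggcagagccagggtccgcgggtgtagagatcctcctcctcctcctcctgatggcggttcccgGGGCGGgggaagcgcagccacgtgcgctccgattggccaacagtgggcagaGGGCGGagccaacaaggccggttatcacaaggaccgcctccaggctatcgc
Kcnip2: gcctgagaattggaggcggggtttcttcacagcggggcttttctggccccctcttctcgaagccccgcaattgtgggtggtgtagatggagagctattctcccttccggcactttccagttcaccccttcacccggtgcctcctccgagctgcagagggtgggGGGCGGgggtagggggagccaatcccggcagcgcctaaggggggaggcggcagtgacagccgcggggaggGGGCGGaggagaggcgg
The runs differed in the number of CG pairs, with 16 in Kcnh5, 15 in Kcnip2, 14 in Kcnj2, 8 in Kcnk13, 7 in Kcne4 and 3 in Kcna5. Over the 80 starts listed for 56 members, the median was 8 CG pairs, and over all listed starts it was 6. A GC box was in the run of 34 of the 56 members (60.7%) and of 35.4% of all 27025 genes listed, an E box in 16 members (28.6%) and 14.7% of the genes, and the TATA box letters TATAAA or TTTATA in 3 members (5.36%) and 14.3% of the genes. All listed genes include noncoding ones, so these shares are descriptions only.

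The 14524 spots were clustered without any Kcn gene, and the clusters were named from markers, so that no channel gene helped to draw an area. The 9 areas compared were the upper cortical layers, cortical layer 5, cortical layer 6, the CA fields and the dentate gyrus of the hippocampus, the thalamus, the striatum, the hypothalamus and the white matter. The sections held 1688 to 2773 spots and 20343701 to 37266232 UMIs, with a median of 10081.5 to 15360 UMIs per spot. The E4 aged section had too few spots of the upper layers (3) and of layer 5 (6) to be used there, so those areas rest on 5 sections and the others on 6. White matter spots were shallow, with a median of 565 UMIs, and 1 thalamic cluster of 113 spots had 108 of them in the E4 young section. Area by area, each section served as 1 replicate and as a block. The p-values (edgeR, adjusted over 13483 genes) therefore measure how far the differences between areas varied from section to section, pooled over the areas. They do not measure the spread in level between the 6 mice, which also differ in genotype, age and transgene. In a spot, fewer cells of a type and less RNA per cell cannot be told apart.

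The members did not share 1 place in the brain. Among the 9 areas, 14 of the 77 had their highest mean CPM in the upper cortical layers, 14 in the thalamus, 12 in the striatum, 10 in the dentate gyrus, 7 in the hypothalamus, 6 in the CA fields, 5 in layer 6, 5 in the white matter and 4 in layer 5. For 16 of them, every section of the highest area stood above every section of the other 8 areas, among them Kcnh5, Kcnh7, Kcns1, Kcnc1, Kcnc2, Kcnj12, Kcnip4, Kcng2, Kcnn2, Kcna5, Kcnk9 and Kcnk13. The share of all genes with such a gap was not computed, so the 16 cannot show whether members had it more often than other genes. Of the 77, 72 had enough counts for the test between areas, and Kcnd3os, Kcnh8, Kcnj14, Kcnj6 and Kcnmb1 did not.

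**Figure D1:**
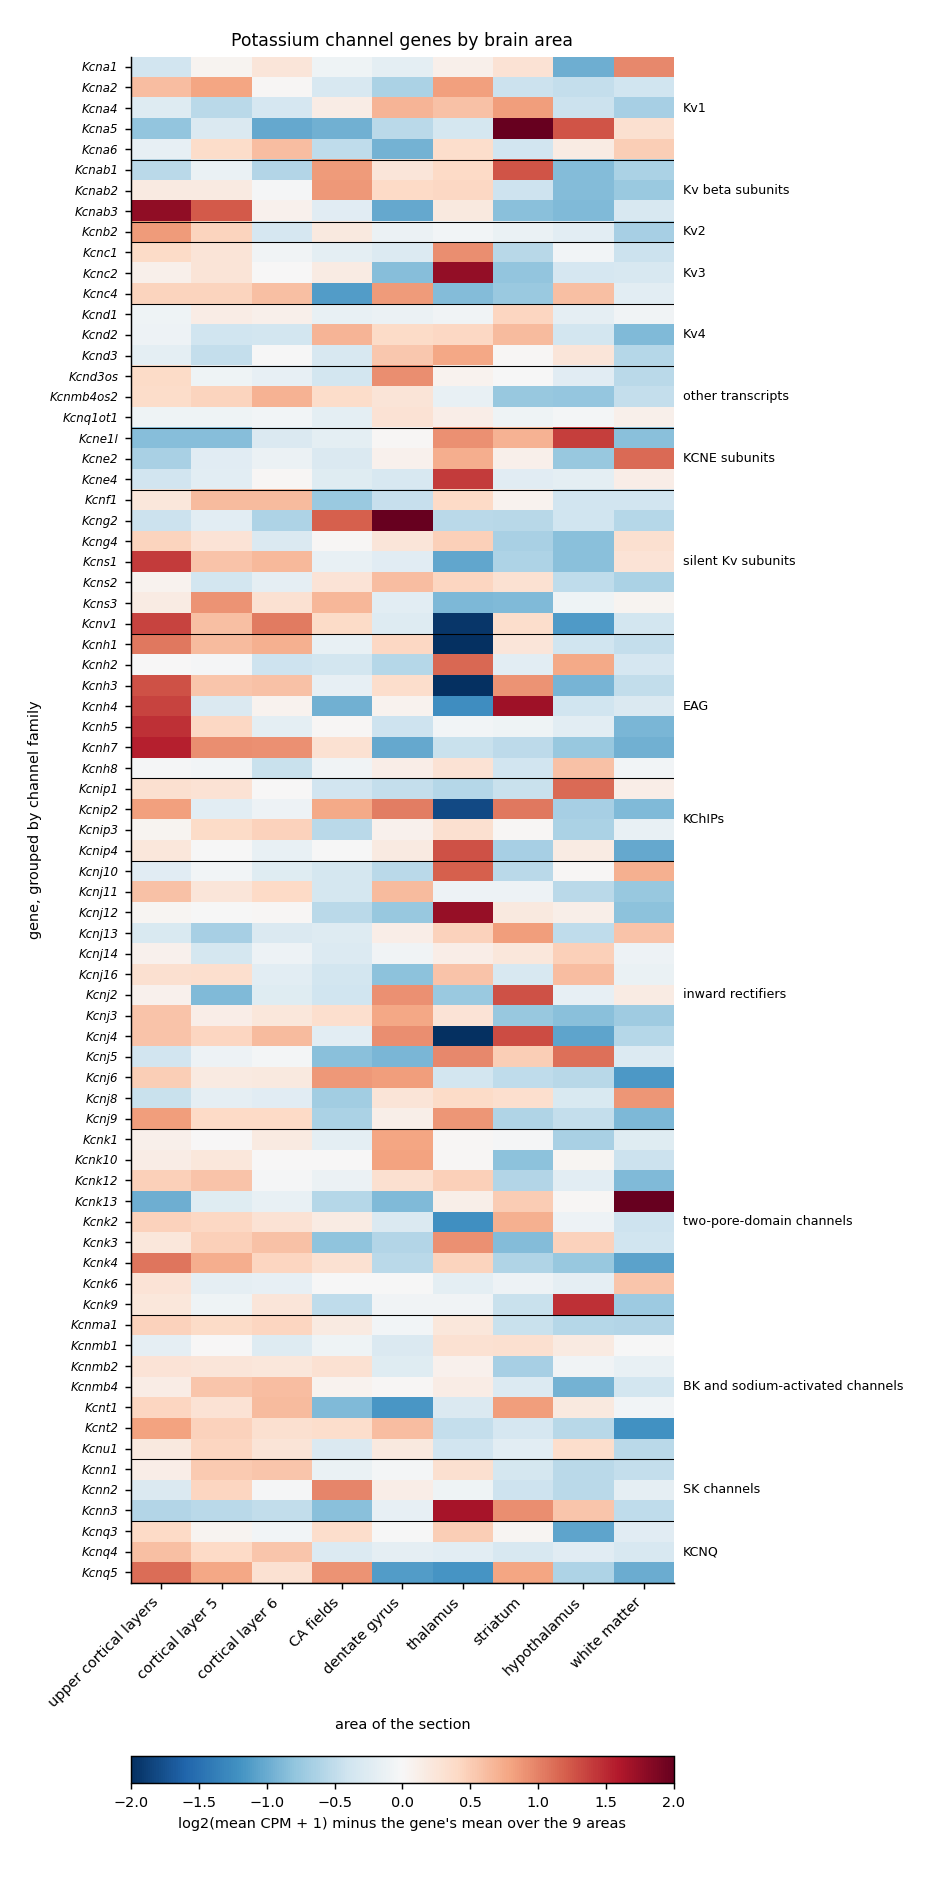
Mean level of 74 members (rows, grouped by family) in 9 areas (columns), as log2(mean CPM + 1) minus the mean of the same gene over the areas. Colours are capped at -2 and 2. Kcnh1, Kcnh3 and Kcnh4 of the EAG family are high in the upper cortical layers and low in the thalamus, where Kcnh2 is high, and Kcnc1 and Kcnc2 of the Kv3 family are highest in the thalamus.

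In the upper cortical layers, 38 of the 72 members tested were higher than in the mean of the other areas and 12 were lower, where 21.6% of all genes tested were higher and 19.9% lower. The median log2 fold change was 0.31 over the members and -0.01 over all genes. The EAG family was the clearest group: 5 of its 6 tested genes were higher and none was lower. Kcnh5, a slow voltage-gated channel of the eag branch, stood at 8.45 CPM in the E3 young, 6.08 in the E4 young, 7.54 in the E3 aged, 7.15 in the E3 5xFAD and 9.20 in the E4 5xFAD section. Every section was close to that level, and the log2 fold change against the other areas was 2.25 ± 0.20 (SE, n = 5 sections, adjusted p = 1.7e-14). Its sister Kcnh1 held 52.9 to 66.3 CPM there and was higher by 1.2 ± 0.08. Kcnh7, an erg channel, held 91.5 to 117 CPM and was higher by 1.75 ± 0.07. Kcnh3 and Kcnh4, both elk channels, were higher by 1.45 ± 0.07 and 1.75 ± 0.14 on the log2 scale. Kcnh2, the erg gene of the heart's repolarizing current, was the exception and did not pass the test in the upper layers.

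Accessory and silent subunits were also high there. Kcnab3, a beta subunit of the Kv1 channels, stood at 116 CPM in the E3 young, 78.3 in the E4 young, 95.2 in the E3 aged, 155 in the E3 5xFAD and 98.8 in the E4 5xFAD section. The 5 sections spread nearly 2-fold, with E3 5xFAD the highest, and all lay above the mean of the other areas (log2 fold change 1.98 ± 0.08, adjusted p = 3.5e-29). Silent Kv subunits form no channel alone and join Kv2 subunits. Of these, Kcnv1 held 71.5 to 99.6 CPM (1.57 ± 0.08) and Kcns1 held 33.7 to 48.8 CPM (1.62 ± 0.08). Kcnb2, a Kv2 subunit they can join, was higher as well, by 1.04 ± 0.10 at 26.5 to 33.2 CPM. Kcnq5, an M current subunit, was higher by 1.24 ± 0.09, and Kcnk4, a mechanically gated two-pore channel, by 1.24 ± 0.11. Kcnma1, the pore of the BK channel, was higher by a smaller 0.56 ± 0.06, and Kcna5 (-1.11), Kcne1l (-1.29) and Kcnk13 (-1.25) were among those lower.

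In layer 5, 37 members were higher and 8 lower (17.5% of all genes were higher and 13.7% lower), and in layer 6, 29 were higher and 10 lower (16.0% and 11.9% of all genes). Layer 5 shared many of these with the upper layers at a smaller fold. Kcnab3 was at 61.9 to 84.3 CPM (1.37 ± 0.10), and Kcnh5 was higher by 0.91 ± 0.28. The member with the highest fold among those that peaked in layer 5 was Kcns3, a silent subunit, which stood at 9.21 CPM in the E3 young, 13.7 in the E4 young, 14.2 in the E3 aged, 13.0 in the E3 5xFAD and 9.81 in the E4 5xFAD section. Each of the 5 sections was above its mean over the other areas (1.16 ± 0.15, adjusted p = 3.0e-09), but the values overlapped those of the CA fields, 6.92 to 14.4 CPM. Kcnf1, another silent subunit, held 87.2 to 99.3 CPM (0.77 ± 0.09), and Kcna2, an axonal Kv1 subunit, held 177 to 279 CPM (0.90 ± 0.05). In layer 6, Kcnv1 stood at 80.6, 66.8, 75.5, 59.7, 64.6 and 52.9 CPM in the 6 sections. The aged values overlapped those of the young and of the 5xFAD sections, but both 5xFAD values lay below both young ones. E4 was below E3 in each condition. These differences between sections were not tested in layer 6, and the fold against the other areas was 1.23 ± 0.09. Kcna6 (0.64 ± 0.07) and Kcnmb4 (0.70 ± 0.05), the neuronal beta subunit of the BK channel, had their highest level in layer 6. Among the two-pore-domain genes, 5 of the 9 were higher in layer 6 and none was lower. The counts were much the same in the upper layers (5 higher and 1 lower) and in layer 5 (4 higher and 0 lower).

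Set directly against each other, the upper layers and layer 6 differed in 30 of the 72 members, where 19.9% of all genes differed. Of these, 22 were higher in the upper layers and 8 in layer 6. The highest folds were those of Kcnh5 (2.58 ± 0.31, adjusted p = 5.7e-10), Kcnab3 (1.59 ± 0.12, adjusted p = 1.8e-17), Kcnh4 (1.36 ± 0.19) and Kcnb2 (1.28 ± 0.14). Kcnk13 (-0.85 ± 0.22), Kcna6 (-0.76 ± 0.09) and Kcnmb4 (-0.47 ± 0.07) led the other way. Of the glial lists, 8 of 11 microglial, 6 of 6 oligodendrocyte and 1 of 3 oligodendrocyte precursor markers were lower in the upper layers than in layer 6 and none was higher, while of 7 astrocyte markers 3 were higher and 1 lower. Their part in these differences was not tested.

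**Figure D2:**
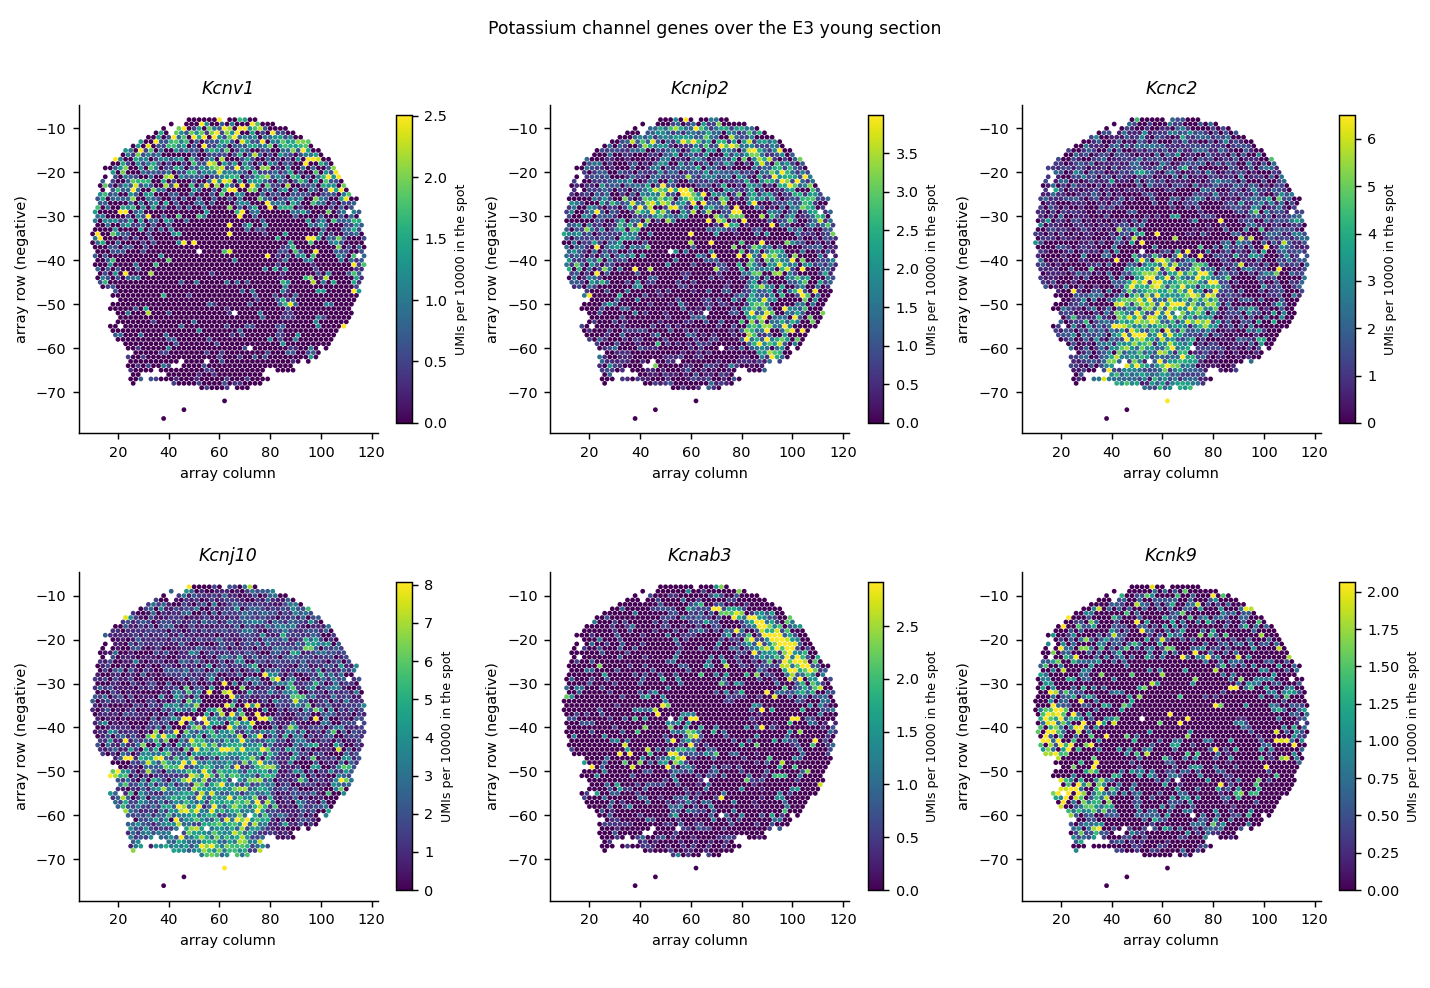
Kcnv1, Kcnip2, Kcnc2, Kcnj10, Kcnab3 and Kcnk9 over the spots of the E3 young section, 1 panel a gene, at the position of each spot, coloured by UMIs per 10000 UMIs of the spot and capped at the 98th percentile of each gene. By mean CPM over the sections, Kcnv1 and Kcnab3 were highest in the upper cortical layers and Kcnip2 in the striatum, with the dentate gyrus next. Kcnc2 and Kcnj10 were highest in the thalamus, and Kcnk9 in the hypothalamus. None is confined to these areas: Kcnab3 was also higher in the thalamus and Kcnj10 in the white matter than in the mean of the other areas.

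The hippocampus split into 2 areas with different channels. In the CA fields, the layers of pyramidal cells, 22 members were higher and 26 lower (19.5% of all genes were higher and 17.7% lower). In the dentate gyrus, home of the granule cells, 20 were higher and 22 lower (26.0% of all genes were higher and 25.3% lower), so the share of members higher there (27.8%) was near that of all genes. Kcnn2, a calcium-activated SK channel that lengthens the pause after a spike, stood in the CA fields at 60.5, 59.1, 56.7, 57.9, 68.0 and 63.8 CPM in the 6 sections. The 6 values lay close together and above every section of every other area (1.14 ± 0.08, adjusted p = 2.4e-19). Kcnq5 stood at 48.9 to 77.6 CPM in the CA fields (1.01 ± 0.09) and at 7.57 to 20.9 CPM in the dentate gyrus (-1.31 ± 0.15). Kcnq3, its partner of the M current, was also higher in the CA fields (0.44). Kcnd2, a pore of the A current in dendrites, held 84.4 to 118 CPM (0.79 ± 0.06), and Kcnab2 held 381 to 507 CPM (1.0 ± 0.05).

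In the dentate gyrus the highest fold was that of Kcng2, a silent subunit. It stood at 61.4, 53.2, 56.9, 65.6, 44.1 and 56.1 CPM in the 6 sections. All were above its level in the CA fields, 24.1 to 36.7 CPM, which in turn was above the other areas, and the folds were 2.47 ± 0.12 (adjusted p = 4.0e-26) and 1.47 ± 0.13. Kcnip2, a KChIP subunit of the Kv4 channels, stood in the dentate gyrus at 168 to 242 CPM (1.10 ± 0.06). Kcnj2, an inward rectifier that holds the resting potential, was at 18.2, 9.71, 28.5, 36.0, 15.4 and 12.5 CPM (1.03 ± 0.19), a spread of more than 3-fold with both aged sections the highest. Kcnc4 (87.8 to 120 CPM, 0.91 ± 0.10), Kcnk1 (158 to 205 CPM, 0.82 ± 0.05) and Kcnj3, a G protein-gated inward rectifier (146 to 198 CPM, 0.79 ± 0.06), also had their highest mean there.

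Between the CA fields and the dentate gyrus 39 members differed, where 37.5% of all genes did. Of these, 20 were higher in the CA fields and 19 in the dentate gyrus. The CA side was led by Kcnq5 (2.07 ± 0.16, adjusted p = 4.6e-17), Kcnh7 (1.41 ± 0.14), Kcnc2 (1.11 ± 0.10) and Kcns3 (1.07 ± 0.22). The dentate side was led by Kcnc4 (-1.86 ± 0.14, adjusted p = 1.9e-17), Kcnj2 (-1.46 ± 0.26), Kcnh4 (-1.2) and Kcnj4 (-1.04 ± 0.11). Within the Kv3 family Kcnc2 and Kcnc4 thus lay on opposite sides.

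**Figure D3:**
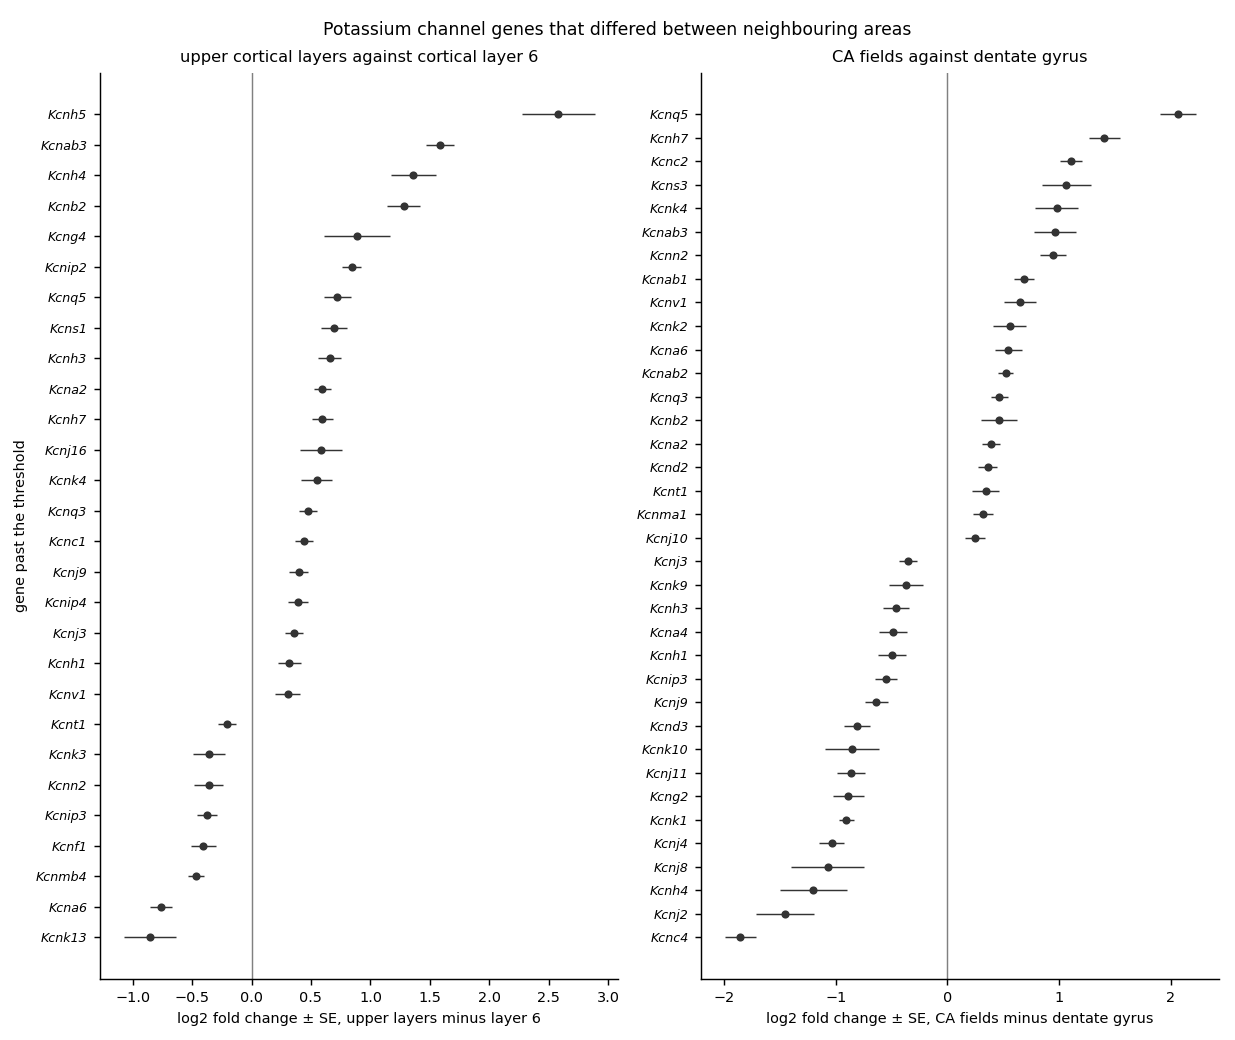
Members that differed between the upper cortical layers and layer 6 (28 genes shown) and between the CA fields and the dentate gyrus (36 genes shown), as log2 fold change (x axis) with its SE as a bar. Kcnh5 and Kcnab3 lie farthest on the side of the upper layers, Kcnq5 on the CA side and Kcnc4 on the dentate side.

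In the thalamus, 35 members were higher and 20 lower, where 29.4% of all genes were higher and 28.1% lower. The median log2 fold change was 0.19 over the members and -0.004 over all genes. Kcnc2 and Kcnc1, pores of the Kv3 channels, were among those higher. Kcnc2 stood at 351, 248, 361, 337, 386 and 282 CPM in the 6 sections. Each of these lay above every section of the other areas, and the fold was 1.97 ± 0.05 (adjusted p = 2.1e-42). Kcnc1 stood at 308, 241, 351, 288, 342 and 274 CPM (1.03 ± 0.05, adjusted p = 2.4e-27). In both genes the E4 section was lower than the E3 section of the same condition, but neither was called between E4 and E3. Kcnc4, of the same family, was lower (-1.02).

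The inward rectifiers moved with the thalamus too, with 7 of 11 tested genes higher and 2 lower. Kcnj12, a strong rectifier, stood at 22.8, 14.3, 23.1, 19.4, 21.1 and 20.5 CPM in the 6 sections, with E4 young the lowest (2.17 ± 0.11, adjusted p = 1.6e-26). Kcnj4, a strong rectifier as well, was the reverse, with 10.4 to 20.1 CPM and a fold of -2.43 ± 0.11. Kcnj9, a G protein-gated rectifier, was higher by 1.0 ± 0.06 at 97.8 to 139 CPM. Kcnj10 stood at 405, 272, 396, 350, 312 and 409 CPM (1.35 ± 0.05, adjusted p = 3.5e-33). Markers of astrocytes, the cells Kcnj10 is known for, summed to 1634 to 2299 CPM in the thalamus and to 2173 to 2331 CPM in the upper layers, and 4 of the 7 astrocyte markers were higher in the thalamus and 3 lower. The oligodendrocyte list had 6 of 6 markers higher in the thalamus, and its part in the Kcnj10 level was not tested.

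Several auxiliary genes peaked in the thalamus. Kcne4, a KCNE subunit, stood at 7.02, 7.79, 7.23, 6.10, 6.41 and 2.01 CPM, with E4 5xFAD apart from the others (2.20 ± 0.20, adjusted p = 5.1e-15). Kcnip4, a KChIP, stood at 175 to 223 CPM (1.43 ± 0.05), above the range of every other area. All 3 Kv beta genes, Kcnab3 among them, were higher in the thalamus, though none had its highest mean there. The SK channel Kcnn3 stood at 27.5, 20.7, 35.2, 25.3, 33.6 and 23.7 CPM, again lower in E4 than in E3 of each condition (1.97 ± 0.11, adjusted p = 2.2e-24). Kcnh2 was higher by 1.34 ± 0.07, the only 1 of 6 tested EAG genes to be higher, against 4 that were lower. Kcnd3, an A current pore, was at 54.0 to 81.7 CPM (0.89 ± 0.07), Kcna2 at 183 to 274 CPM (0.91 ± 0.05), Kcnq3 higher by 0.53 ± 0.05, and Kcnk3, an acid-sensitive two-pore channel, by 1.07 ± 0.09. On the low side were Kcnh1 (3.62 to 7.55 CPM, -2.51 ± 0.11), Kcnh3 (7.79 to 16.3 CPM, -2.48 ± 0.11), Kcnv1 (5.18 to 11.2 CPM, -2.40 ± 0.12) and Kcnip2 (18.7 to 40.04 CPM, -2.10 ± 0.07).

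**Figure D4:**
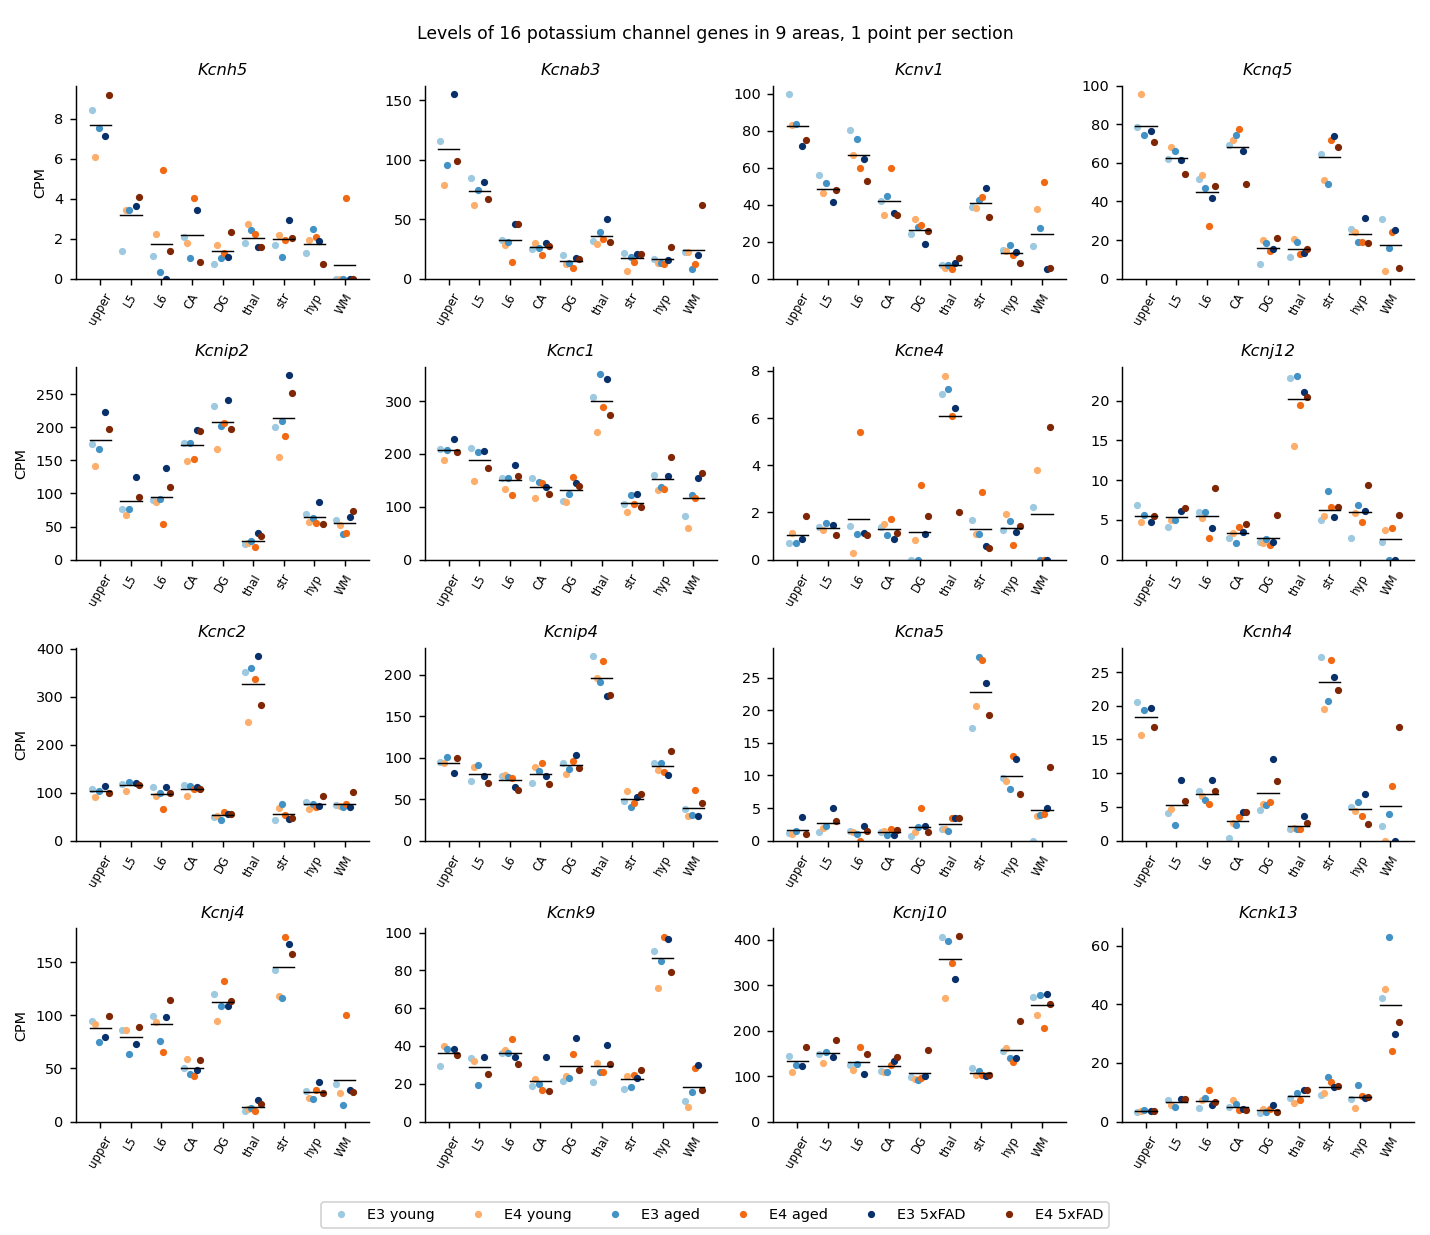
CPM of 16 members in the 9 areas, 1 panel a gene, each point 1 section and each line the mean over sections. Kcnh5 and Kcnab3 peak in the upper cortical layers, Kcnc2 and Kcnj12 in the thalamus, Kcna5 in the striatum, Kcnk9 in the hypothalamus and Kcnk13 in the white matter.

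In the striatum, 21 members were higher and 25 lower, where 14.6% of all genes were higher and 13.3% lower. Kcna5, a Kv1 subunit, stood at 17.3, 20.7, 28.2, 27.7, 24.2 and 19.2 CPM in the 6 sections. Its level in the hypothalamus was 7.18 to 13.0 CPM and the mean in layer 6 was 1.25 CPM, so the striatal values stood clear of all others (3.14 ± 0.16, adjusted p = 3.6e-25). Kcnh4 stood at 27.3, 19.6, 20.6, 26.7, 24.2 and 22.3 CPM (2.21 ± 0.16, adjusted p = 1.1e-17). Kcnj2 stood at 20.6, 16.3, 35.8, 33.4, 21.9 and 26.8 CPM and was highest in both aged sections (1.54 ± 0.19, adjusted p = 1.2e-09). Its relative Kcnj4 stood at 143, 119, 116, 174, 167 and 157 CPM (1.54 ± 0.09). Kcnab1, a beta subunit that speeds inactivation, was at 243 to 300 CPM (1.5 ± 0.07), Kcnip2 at 156 to 279 CPM (1.28 ± 0.06), and Kcnt1, a sodium-activated channel, at 66.4 to 108 CPM (1.05 ± 0.07). Kcnc2 (-0.91 ± 0.09), Kcnc4 (-0.81) and Kcnc1 (-0.55 ± 0.07) were lower.

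In the hypothalamus the members were mostly low: 14 were higher and 39 lower, where 27.5% of all genes were higher and 28.2% lower, and the median log2 fold change was -0.44 over the members and -0.02 over all genes. Of the 7 silent subunits 6 were lower and none higher, and of the 4 KCNQ genes 3 were lower. Kcnk9, an acid-sensitive two-pore channel, was the clearest on the high side. It stood at 90.5, 70.7, 85.0, 97.7, 96.5 and 79.0 CPM in the 6 sections, above every section of the other areas (1.68 ± 0.07, adjusted p = 1.1e-28). Kcnip1 stood at 50.6 to 60.4 CPM (1.29 ± 0.09), also clear of the other areas. Kcne1l, a KCNE subunit, stood at 11.1, 6.53, 9.87, 11.8, 10.5 and 15.8 CPM (1.79 ± 0.17, adjusted p = 2.1e-14). Kcnj5, a G protein-gated rectifier, was sparse, at 1.80 to 3.92 CPM (2.32 ± 0.34, adjusted p = 3.5e-08), and the dentate gyrus held 1 UMI of it over the 6 sections. Kcna1 (-1.34), Kcnq3 (-1.22) and Kcnab2 (-1.0 ± 0.06) were among those lower.

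White matter held few of these genes. Here 5 members were higher and 24 lower, where 13.7% of all genes were higher and 16.2% lower, and the median log2 fold change was -0.53 over the members and -0.08 over all genes. The count of 5 was 3 without the E3 young or the E3 aged section and 10 when spots were placed by markers alone. Kcnk13, a two-pore channel known from microglia, was the clearest. It stood at 42.3, 45.3, 62.9, 24.2, 30.0 and 33.8 CPM in the 6 sections, which together were 65 UMIs, and the fold was 2.69 ± 0.23 (adjusted p = 1.8e-15). All 6 sections lay above the range of every other area. Several marker lists moved with it: 11 of 11 microglial markers were higher in white matter, with sums of 880 to 4067 CPM, and so were 6 of 6 oligodendrocyte markers, with sums of 15268 to 36164 CPM against at most 6575 in the other 8 areas. The oligodendrocyte markers had also served to name the area. Choroid plexus markers were higher as well, 4 of 4 with a median log2 fold change of 2.22, and so were 4 of 7 astrocyte and 2 of 3 oligodendrocyte precursor markers. The part of these cells in the Kcnk13 level was not tested.

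The other 4 members higher in white matter were Kcnj10, Kcna1, Kcna6 and Kcnj8. Kcnj10 stood at 274, 234, 279, 205, 280 and 259 CPM (0.84 ± 0.10), and the astrocyte sum there was 2066 to 3546 CPM. Kcna1, a Kv1 subunit of myelinated axons, stood at 24.5, 18.9, 35.4, 4.03, 15 and 0 CPM (1.26 ± 0.35, adjusted p = 3.6e-03), on 29 UMIs, and was above the mean of the other areas in only 4 of the 6 sections. Kcnj8, the ATP-sensitive rectifier of pericytes, rested on 15 UMIs (1.21 ± 0.46), and 2 of 7 endothelial and mural markers were higher there. Kcna6 was higher by 0.60 ± 0.15.

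Outside the 9 areas, the choroid plexus cluster, 15 to 42 spots a section, held the highest level of 4 members. Kcnj13, an inward rectifier of the choroid plexus epithelium, stood there at 257, 51.7, 362, 279, 339 and 250 CPM, and its highest mean elsewhere was in the striatum at 0.954 to 6.12 CPM. Kcne2, the KCNE subunit of the same epithelium, stood at 277, 27.0, 197, 361, 252 and 483 CPM. In both genes the E4 young section was the lowest. Kcnk1 stood at 62.9 to 272 CPM and Kcnmb1 at 1.94 to 42.7 CPM, and these levels were not tested. The meninges held the highest level of Kcnj16, the partner of Kcnj10, at 16.3 to 43.5 CPM, beside 18.4 to 31.3 CPM in the hypothalamus (0.75 ± 0.12), and of Kcnk6, at 1.26 to 7.52 CPM, on 20 UMIs.

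Genes that work with these channels were read beside them. Of 19 such partners tested (Hcn2, the Kv4 subunits of the DPP family and others), 12 were higher and 3 lower in the upper layers, 11 and 5 in the thalamus, 6 and 11 in the dentate gyrus, 5 and 9 in the hypothalamus, and 2 and 10 in the white matter. In layers 5 and 6 the counts were 7 and 1 and 7 and 4, in the CA fields 8 and 7, and in the striatum 5 and 3. Hcn2, a pore of the current that depolarizes cells after inhibition, was higher in the thalamus by 1.08. The 2 DPP genes ran opposite ways in these areas. Dpp10 was higher in the upper layers by 1.07 and lower in the dentate gyrus (-1.72), while Dpp6 was lower in the upper layers (-0.27) and higher in the dentate gyrus by 0.42.

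The comparisons between genotypes and conditions asked whether channel genes differed between E4 and E3, between aged and young, and between 5xFAD and young sections of the same region. They were made in 4 regions (cortex, hippocampus, thalamus and striatum) with 1 section per genotype and condition, by a model with genotype and condition as additive terms that leaves 2 residual degrees of freedom. Of the 12 comparisons, 2 called 1 member each, and the other 10 called none. The shares of all genes given with them are those past the adjusted threshold in the main fit. No such share is available for an unadjusted p under 0.05, for alternative fits such as those with a section left out, or for counting intervals. The counts of members given for these cannot show whether members differed more often than other genes. Aged and 5xFAD were compared with the same 2 young sections, so they share controls.

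In the cortex, 72 members were tested. None was called between E4 and E3 (0.00736% of all genes tested were called, 13 members had an unadjusted p under 0.05, all lower in E4, and DESeq2 called 0). None was called between aged and young (0.0221% of all genes, 10 members with an unadjusted p under 0.05, DESeq2 0), nor between 5xFAD and young (0.891% of all genes, 9 members, DESeq2 0). These counts rested on single sections: 18 members were called for aged without the E3 aged section, 9 for 5xFAD without E3 aged and 11 without E4 aged, and 1 between genotypes without E4 aged. The E4 aged section had 190 cortical spots, against 714 to 948 in the others, and 150 of these came from 1 cortical cluster. Kcnv1 stood at 80.4, 67.3, 71.3, 61.3, 60.7 and 59.5 CPM, and the 5xFAD sections were below both young ones (-0.38 ± 0.09, adjusted p = 0.179). Kcna1 stood at 9.30, 7.80, 6.42, 4.54, 6.34 and 3.78 CPM, with both young sections the highest (5xFAD against young -0.87 ± 0.21, adjusted p = 0.195). With an equal mix of cortical areas, on 13 to 21 UMIs a section, its log2 ratio of 5xFAD over young was 0.018 in the E3 pair, where it had been -0.55, and 0.14 in the E4 pair, where it had been -1.05. Kcnf1 had the lowest p between aged and young (90.4 and 89.2 CPM in the young, 106 and 125 CPM in the aged sections, 0.33 ± 0.10, adjusted p = 0.953). Over the members with at least 100 UMIs in a pair of sections, the median log2 ratio of E4 aged over E3 aged in the cortex was -0.31, with 30 of 56 intervals below 0, and the median over all genes was 0.01. It was -0.13 with an equal mix of cortical areas, a random draw of 31 layer 6 spots and 150 spots of the unnamed cortical cluster from every section.

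In the hippocampus, 64 members were tested and none was called: between E4 and E3 (0.101% of all genes, 2 members with an unadjusted p under 0.05), between aged and young (0.378%, 2 members) and between 5xFAD and young (1.15%, 9 members), and DESeq2 called 0 in each. Kcnj2 had the lowest p with age. It stood at 10.7, 6.19, 12.4, 21.7, 13.5 and 9.65 CPM in the 6 sections, on 28 to 72 UMIs a section, and E4 aged stood apart from the others (aged against young 1.01 ± 0.30, adjusted p = 0.418). Without the E4 aged section the change was 0.30. Kcnh3 stood at 47.5, 61.1, 49.96, 59.2, 48.3 and 60.2 CPM, and all 3 E4 sections lay above all 3 E3 sections (0.32 ± 0.10, adjusted p = 0.484). Kcnk3 stood at 9.97, 8.42, 10.8, 11.2, 20.3 and 13.7 CPM, highest in both 5xFAD sections (0.77 ± 0.24, adjusted p = 0.193). None of these passed the test.

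In the thalamus, 64 members were tested. Kcnj2 was called between 5xFAD and young (1 of 64, where 1.51% of all genes were called). It stood at 3.23, 3.26, 2.73, 4.81, 9.84 and 9.84 CPM in the 6 sections, on 29, 18, 17, 26, 43 and 49 UMIs. Both 5xFAD sections stood above the other 4, and the log2 fold change against young was 1.51 ± 0.29 (adjusted p = 0.022). Within each genotype the log2 ratio was 1.61 in E3 (95% interval 0.89 to 2.34) and 1.59 in E4 (0.79 to 2.46), where the intervals cover counting error only. Without the E3 5xFAD section the change was 1.26 ± 0.38 (adjusted p = 0.111), and DESeq2 gave 1.52 with an adjusted p of 0.337. The microglial markers moved with it: they summed to 505, 456, 847, 691, 3001 and 2422 CPM in the same sections, and 8 of the 10 tested were higher in 5xFAD, with a median log2 fold change of 2.19. Of the other cell lists, 2 of 7 astrocyte and 1 of 6 interneuron markers were higher (median 0.55 for the interneuron list), and 2 of 6 RNA quality genes were lower. Of the area lists, 1 of 9 striatal markers (median 0.45) and 1 of 5 reticular thalamus and pallidum markers (median 0.54) were higher. Among layer 6 markers 1 of 7 was lower, and among dentate gyrus markers 1 of 5. Their part in the Kcnj2 level was not tested. The count of 1 member became 7 without the E3 young, 6 without the E4 young and 2 without the E3 5xFAD section.

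Between E4 and E3 no thalamic member was called (0.00822% of all genes, 13 members with an unadjusted p under 0.05, 12 of them lower in E4, DESeq2 0), nor between aged and young (0.164% of all genes, 6 members, all higher, DESeq2 0). Without the E3 young section 8 members were called for aged, and 1 was called between genotypes when any young or 5xFAD section was left out. Kcnf1 stood at 78.8, 47.1, 89.5, 91.4, 89.7 and 70.7 CPM, lowest in E4 young (aged against young 0.57 ± 0.15, adjusted p = 0.512). The median log2 ratio of E4 young over E3 young was -0.32 over 53 members, with 31 intervals below 0 and 5 above, and -0.07 over all genes. Without the thalamic cluster found nearly only in the E4 young section it was -0.20.

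In the striatum, 46 members were tested, and Kcnip2 was called between 5xFAD and young (1 of 46, where 1.2% of all genes were called). It stood at 200, 156, 210, 187, 279 and 252 CPM in the 6 sections, on 359, 143, 193, 196, 472 and 498 UMIs. Both 5xFAD sections were above the other 4, with a log2 fold change of 0.49 ± 0.12 (adjusted p = 0.035). The call was lost with DESeq2 (adjusted p = 1.0), when spots were clustered without centring the sections (0.39 ± 0.12, adjusted p = 0.156), without the E4 young section (adjusted p = 0.478), without the E3 5xFAD section (adjusted p = 0.173) and without the E4 5xFAD section (adjusted p = 0.359). Oligodendrocyte markers moved the other way in the same spots, with 6 of 6 lower in 5xFAD and sums of 5790, 6575, 4514, 4113, 3269 and 3331 CPM, while 0 of 9 striatal markers were called (median log2 fold change 0.30). Microglial markers were higher, 8 of 10 with a median of 1.33, 4 of 6 RNA quality genes were lower, with a median of -0.48, and 1 of 7 astrocyte markers was higher. Their part in the Kcnip2 level was not tested. In the thalamus Kcnip2 stood at 23.5 and 25.5 CPM in the young and 40.04 and 35.5 CPM in the 5xFAD sections (0.57 ± 0.18, adjusted p = 0.236). Between E4 and E3 (0.0218% of all genes, 5 members with an unadjusted p under 0.05) and between aged and young (0.207%, 3 members) no striatal member was called, and DESeq2 called 0. The lowest p there were those of Kcnf1 (47.9, 72.9, 57.6, 69.7, 52.6 and 71.4 CPM, E4 against E3 0.40 ± 0.14, adjusted p = 0.584) and of Kcnj2 with age (0.80 ± 0.28, adjusted p = 0.710).

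**Figure D5:**
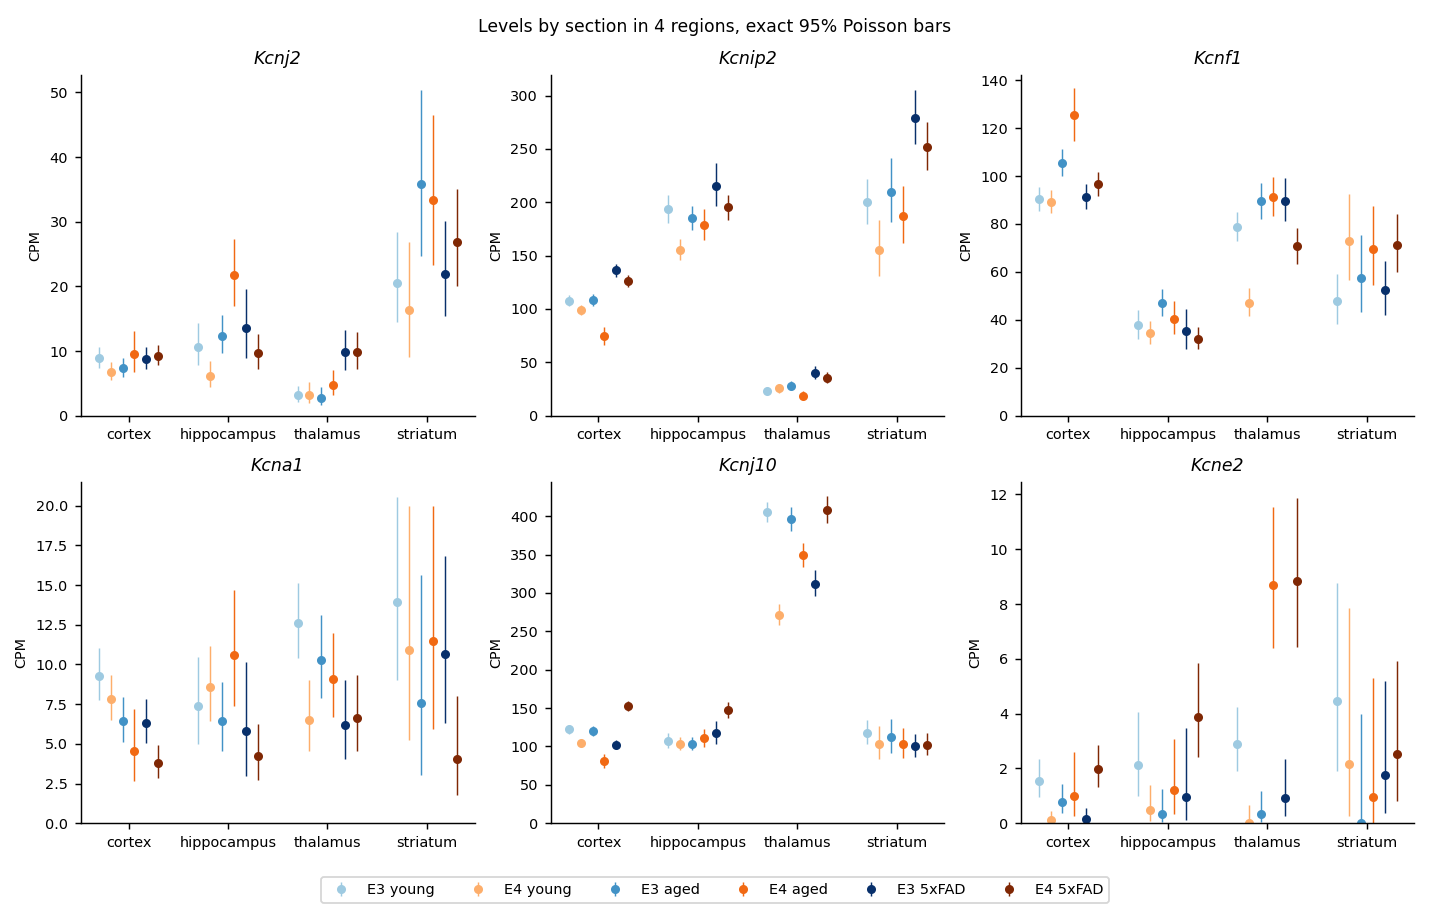
CPM of Kcnj2, Kcnip2, Kcnf1, Kcna1, Kcnj10 and Kcne2 in cortex, hippocampus, thalamus and striatum (x axis), with 1 panel for each gene, each point and colour 1 of the 6 sections, and exact 95% Poisson intervals as bars, which cover counting error only. Kcnj2 in the thalamus is highest in both 5xFAD sections, at 9.84 CPM each, and Kcnip2 in the striatum is highest there too.

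Kcnj10 was not called in any comparison between sections. It stood in the cortex at 122, 105, 120, 80.5, 103 and 153 CPM (5xFAD against young 0.08 ± 0.21, adjusted p = 0.937) and in the hippocampus at 107, 104, 103, 111, 118 and 147 CPM (0.28 ± 0.12, adjusted p = 0.467). The E4 5xFAD section was the highest in both. The log2 ratio of 5xFAD over young ran opposite ways in E3 and E4, at -0.26 and 0.54 in the cortex and at -0.38 and 0.59 in the thalamus. A model with additive terms averages such moves, so the lack of a call cannot show that the conditions were alike. Kcne2 moved with the choroid plexus markers. It stood in the cortex at 1.54, 0.129, 0.774, 1.01, 0.151 and 1.99 CPM, where the list summed to 848, 200, 220, 616, 211 and 999 CPM. In the thalamus it stood at 2.90, 0, 0.321, 8.69, 0.915 and 8.83 CPM, where the list summed to 1304, 184, 154, 3944, 354 and 3444 CPM. In both regions the 3 sections with the highest sums were those with the highest Kcne2, and the part of choroid plexus RNA in its level was not tested.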

How the data were processed

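Whole-number UMI counts per gene and spot were deposited by the authors, who made them from Visium libraries with Space Ranger 1.3.0 and STAR 2.5.1b per the submitters' processing notes. The matrix headers name spaceranger 1.2.2 for 5 sections and 2.0.0 for 1 section (E3 5xFAD), so 1 of the 6 came from another release, and the build was mm10 with human genes beside it. Only barcodes marked as lying under tissue were kept, 14524 in all, since the matrices held 75.9% to 99.9% of the marked spots of a section. Slides and sequencing runs are not given in the sources used here, but file prefixes set the 5xFAD pair apart from the other 4 sections, so a run and 5xFAD cannot be told apart. The intervals cover counting error only, and the depth of each section is given with the results.

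Spots were clustered after centring each section (3000 variable genes without Kcn genes, 20 principal components, 20 neighbours, resolution 0.8, 18 clusters) and named from markers. No doublet caller was run, since a spot is a small region. Counts were summed per area or region and section, sums of under 20 spots were left out of the 9 areas and 4 regions (but not of the choroid plexus and habenula levels, which were not tested), and genes were tested with edgeR 4.0.16 (TMM, filterByExpr, quasi-likelihood) in R 4.3.3 with Benjamini-Hochberg adjustment over all genes and a threshold of 0.05. An area was set against the mean of the other 8 with the section as a block. Regions were compared between sections with genotype and condition as terms. Exact 95% intervals were given for log2 ratios of 2 sections. DESeq2 1.42.0, other filters, other areas, other spots and each section left out in turn were the alternatives. The scripts were tested on simulated data. The members, the marker lists (microglia, astrocytes, oligodendrocytes, endothelial and mural cells, choroid plexus, striatum) and the partner list were chosen with earlier results of these data known. The 41 members named by rule were, for each area, the 3 with the highest fold among those higher in every section on at least 50 UMIs, the called member or the lowest p of each contrast, members known from glia, vessels, choroid plexus or fast-firing neurons, and those with the most and the fewest UMIs; further members were picked after their values were seen. A few genes that were fitted and counted are not reported here by name.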

Additional observations from a re-analysis of the deposited data

Results flagged for a closer look

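In 11 cases, among 41 named members with 8 pairs of ratios each, the counting interval of a log2 ratio lay on one side of 0 in the E3 pair of sections and on the other side in the E4 pair. The differences were not tested, since each ratio rests on 1 section a group, and the value given first is the E4 ratio minus the E3 ratio.

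Kcne2 made up 3 of these. In the cortex, 5xFAD over young differed by 7.30 (-3.35 in E3 and 3.95 in E4). In the thalamus the E4 young section had no Kcne2 count. With that section put at the level of 3 counts, 0.544 CPM, the difference was 5.69 for 5xFAD (-1.66 in E3, with a counting interval from -3.64 to -0.14) and 7.17 for aged (-3.17 in E3, from -6.29 to -1.17). The E4 log2 ratio itself had a lower counting limit of 3.66 for 5xFAD and 3.64 for aged. The choroid plexus markers ran the same way, as given with the results.

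Kcnj10 differed for 5xFAD over young by 0.80 in the cortex (-0.26 in E3, 0.54 in E4) and by 0.96 in the thalamus (-0.38 and 0.59). With an equal mix of cortical areas the cortical ratios were -0.29 and 0.41. Kcnh7 in the hippocampus differed by -1.12 for 5xFAD over young (0.72 in E3, -0.40 in E4).

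For aged over young in the cortex, Kcnab1 differed by -0.43 (0.12 and -0.31), Kcnab2 by -0.34 (0.12 and -0.22) and Kcnd2 by -0.80 (0.17 and -0.63). With an equal mix of cortical areas the E4 ratio was -0.48 for Kcnab1, 0.12 for Kcnab2 and -0.28 for Kcnd2. For aged over young in the thalamus, Kcnip4 differed by 0.37 (-0.23 and 0.15) and Kcnq5 by -1.42 (0.73 and -0.69). Without the thalamic cluster found nearly only in the E4 young section, the E4 ratio was -0.04 for Kcnip4 and 0.25 for Kcnq5.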

How the results depend on the processing

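No paired analysis was possible because each group was 1 section. The area tests had the section as a block, and with no replicate block they called 37 members higher in the upper layers, 35 in layer 5, 28 in layer 6, 20 in the CA fields, 20 in the dentate gyrus, 34 in the thalamus, 20 in the striatum, 13 in the hypothalamus and 5 in the white matter, 24 between upper layers and layer 6 and 35 between CA fields and dentate gyrus. With each section left out in turn these counts were 37 to 39, 32 to 38, 27 to 29, 18 to 23, 20 to 23, 33 to 35, 19 to 22, 12 to 15, 3 to 6, 25 to 29 and 35 to 41. The white matter count became 10 with spots placed by markers alone. Among the folds of members picked by rule for an area, none changed its direction or its side of the threshold under any alternative run. The other folds given in the text were not followed 1 by 1. Some of them crossed the threshold, since the white matter count fell to 3 with a section left out.

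Comparisons between sections were less stable. Leaving out 1 section gave 0 to 1 members in the cortex for E4 against E3, 0 to 18 for aged (18 without E3 aged) and 0 to 11 for 5xFAD (9 without E3 aged, 11 without E4 aged). In the thalamus the counts were 0 to 1, 0 to 8 (8 without E3 young) and 1 to 7, in the hippocampus 0 to 0, 0 to 1 and 0 to 0, and in the striatum 0 to 0, 0 to 0 and 0 to 1. With no filter on low counts, 1 member (Kcna1) was called for 5xFAD in the cortex, 1 (Kcnj2) for aged in the hippocampus, 2 (Kcnc4 among them) for E4 against E3 in the thalamus and 1 (Kcnf1) for aged in the thalamus. DESeq2 called 0 for 5xFAD in the thalamus and 0 in the striatum, where clusters without centring also called 0. The cause was not tested. The equal mix of cortical areas and the removal of the thalamic cluster were chosen after seeing the data. With the equal mix, 19 of 110 cortical log2 ratios of named members that were clear of 0 by counting reversed, and without the thalamic cluster 7 of 48 thalamic ratios that involve E4 young did. Of the ratios the text gives or that belong to members named for a comparison, the equal mix reversed those of Kcna1 to 0.069 and 0.096 (aged over young in E3 and E4) and to 0.018 and 0.14 (5xFAD over young), Kcnab2 to 0.12 (E4 aged over young), Kcnf1 to -0.22 (E4 over E3 aged), and Kcnip2 to 0.19, 0.021 and 0.14 (E4 over E3 in young, aged and 5xFAD). Without the thalamic cluster, E4 aged over young reversed to -0.0395 for Kcnip4 and 0.25 for Kcnq5. With the mean share per spot, Kcnj10 in the hippocampus reversed to -0.17 (E4 over E3 5xFAD). White matter depth and 1 section a group limit what could be detected.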

Other observations

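The habenula, 13 to 44 spots a section and none in the E4 young section, was left out of the tests, and several members had their highest level there. Kcng4, a silent Kv subunit, stood at 123 CPM in the E3 young, 177 in the E3 aged, 69.0 in the E4 aged, 53.5 in the E3 5xFAD and 101 in the E4 5xFAD section, while its highest mean among the 9 areas was 8.05 CPM, in the thalamus. Kcnip1 stood at 281, 347, 262, 53.5 and 249 CPM in the same sections, beside 54.2 CPM in the hypothalamus, and Kcnma1 at 284, 307, 284, 146 and 293 CPM, beside 76.6 CPM in the upper cortical layers. Kcnd3 held 82.7 to 118 CPM. Kcnh8, an elk channel with 145 UMIs in all, had 31 of them in the habenula (7.05 to 30.4 CPM). The E3 5xFAD section was the lowest of the 5 in Kcng4, Kcnip1, Kcnma1 and Kcnd3, on 23 spots.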
